A study of Mus musculus with 16 samples.

Results

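The imprinted genes described here are a list of 37 named mouse genes known to be imprinted, and all 37 were present among the 24421 genes of each of the 3 stage tables. Of these, 14 are grouped here as maternally expressed, 21 as paternally expressed, and 2 (Grb10 and Gnas) as expressed from either allele depending on promoter or tissue. Whether each member is imprinted in the tissues used here was not measured. They lie in 9 clusters of several members, with 6 members at single loci. The reads were not assigned to parental alleles, so every value below is the sum over both alleles, and the assignment to a parental allele is background knowledge and not a measurement.

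RNA was sequenced from mouse embryos lacking miR-302, a microRNA family, and from wild-type embryos, at embryonic days E7.5, E8.5 and E9.5. At E7.5 the groups were 2 KO and 2 WT libraries of whole embryos. At E8.5 they were 4 KO and 3 WT libraries of sorted Wnt1-Cre-positive cells, which mark the early neural crest and the dorsal neural tube from which it leaves. At E9.5 they were 2 KO and 2 WT libraries of sorted Sox10-positive cells, which mark migrating neural crest. The strain label is C57BL/6 in every group, and the labels name neither the deleted allele, nor the reporter behind either sort, nor whether embryos were pooled. Where libraries came from separate embryos is not stated, and the p-values below therefore rest on library-to-library spread alone, which may be technical. The labels also carry code numbers whose meaning is not given: at E9.5 both KO libraries have code 171 and both WT libraries have code 209, so code and genotype cannot be told apart there. The KO library of E8.5 named KO4_5s is not analysed here, which leaves 15 of 16.

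Imprinted genes are transcribed mainly or only from one parental chromosome, under the control of regions that carry a methylation mark from one germ line. Neighbouring members often share such a control region and are expressed from opposite chromosomes, one of them commonly being a long noncoding RNA that silences the others in cis. Many paternally expressed members promote fetal growth and many maternally expressed members restrain it, and several, among them Mest, Peg3, Dlk1, Ndn, Nnat and Cdkn1c, are characteristic of embryonic mesenchyme and the nervous system.

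The microRNAs removed in the KO pair with target 3′ untranslated regions through their seed, bases 2 to 8, and are shown here with the seed in capitals because the sites in the members are read against it. The sequences are RefSeq mature arms, 5′ to 3′, from mouse chromosome 3 of mm10; the first lies at chr3:127545275-127545297 on the plus strand.
mmu-miR-302b-3p: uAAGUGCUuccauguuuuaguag
mmu-miR-302c-3p: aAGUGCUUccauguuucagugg
mmu-miR-302d-3p: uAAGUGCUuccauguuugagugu
The arms of miR-302b and miR-302d share 1 seed, and the annotated miR-302c arm starts 1 base later in the same run of letters. Only 3p arms are shown, and that of miR-302a had no entry in the sequences used.

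In DNA letters the match is AGCACTT for bases 2 to 8. The variant that pairs with bases 2 to 7 and ends in A is GCACTTA. The longer AGCACTTA holds both. They were searched on the transcript strand of the longest annotated 3′ untranslated region of each gene. Of the 31 members with such a region, 11 held at least 1 match, or 35.5%, against 3703 of 19511 genes of the tables, or 18.98%. In the shortest annotated region of each gene the counts were 4 members, or 12.9%, against 10.1% of genes, so the larger share depends on the long isoforms. The median length of the longest region was 1304 bases in the members and 1130 bases over all genes. Only Zim1 held the 8-letter motif, 3.23% of members against 3.15% of genes. The other members with a match were Usp29, Copg2, Peg10, Ppp1r9a, Grb10, Ndn, Ube3a, Zrsr1, Nnat and Impact. Below, each site is printed within 30 bases of its region, 5′ to 3′ with the match in capitals, for the Zim1 8-letter site and for 4 members whose RNA differed between KO and WT at E9.5.
Zim1: gggcaagttcccatgaacAGCACTTAcctg
Grb10: gttttgtcttcccctttctGCACTTAaata
Ube3a: taaataagcatgtaaaagtGCACTTAaaat
Peg10: gtgttttttcttttattttAGCACTTccaa
Nnat: tgtgttccctcgtcagaggAGCACTTgcca
The Grb10, Peg10 and Nnat matches start at bases 2650, 3711 and 117 of regions of 2955, 5166 and 888 bases, and the Ube3a match at base 902 of 6606. A match is a description of these letters, and binding was not measured.

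Several members are themselves hosts of microRNAs. Annotated hairpins lie in Mirg (14 on the same strand), Rian (3), Rtl1 (1 on the same and 6 on the opposite strand), and 1 each in H19, Igf2, Usp29, Mest and Meg3. None of the mature arms from these loci carries the miR-302 seed. The hairpin in H19, at chromosome 7, gives 2 arms, whose seeds differ from that of miR-302.
mmu-miR-675-5p: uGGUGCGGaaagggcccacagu
mmu-miR-675-3p: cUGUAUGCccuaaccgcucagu

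The 4 miR-302 hairpin genes gave 0 reads in both E7.5 KO libraries, against 14 and 25 reads in the E7.5 WT libraries. Over the later stages they gave 0 reads in every KO library and at most 1 read in any WT library, so they check the labels only at E7.5. Depth ran from 4912827 to 14861728 reads per library, and a member at 0 could still have had up to 3 reads, or 0.202 to 0.611 RPM (reads scaled to a common library total). Sox10, which defines the sorted population, gave 39.2 and 79.6 RPM in E9.5 KO libraries and 97.7 and 85.3 RPM in E9.5 WT libraries. On the deposited scale, which the tests use, Sox10 had 511 and 1165 in KO and 722 and 639 in WT libraries, with overlap. The marker sums that follow are in RPM. Libraries stood apart in markers of other cells. A list of 9 erythroid genes, the globins among them, summed to 21036 and 20.6 RPM in the E9.5 KO libraries KO1 and KO2, against 1.92 and 3.57 RPM in WT1 and WT2. At E8.5 it summed to 1653, 2525, 3.62 and 99.4 RPM in KO1 to KO4, against 1.78 to 2.7 RPM in the WT libraries. At E7.5 14 trophoblast markers summed to 5055 and 8705 RPM in KO1 and KO2, against 2034 and 1071 RPM in WT1 and WT2, and each of the 14 was detected. At E9.5 10 visceral endoderm markers summed to 59.7 and 152 RPM in KO libraries, against 3.84 and 3.50 RPM in WT libraries. A list of 9 uterine gland and decidua genes summed to 1002 and 992 RPM in E7.5 KO libraries, against 1460 and 2493 RPM in WT libraries. At E9.5 it summed to 69.2 and 28.5 RPM in KO libraries, against 12.6 and 9.82 RPM in WT libraries, with 3 of its 4 testable genes called higher and Ltf, Prss28, Prss29 and Prl8a2 at 0 in every library. At E9.5 8 paraxial mesoderm markers summed to 41.9 and 17.2 RPM in KO libraries, against 84.4 and 79.8 RPM in WT libraries. Beside these, 10 neural crest markers summed to 2643 to 2667 RPM in E9.5 KO libraries and 1853 to 2811 RPM in WT libraries, and 1 of the 10 was called higher and 4 lower in KO. The part of other cells in the members' values was not tested. In bulk RNA, fewer cells of a type and less RNA per cell cannot be told apart.

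The libraries are unstranded, so reads of overlapping genes on opposite strands cannot be told apart. By the annotation, 19 of the 37 members share no exonic base with another gene. Mest and Copg2 share 912 exonic bases at their 3′ ends, and Ube3a shares 27.3% of its exonic bases with transcripts of the other strand, Snhg14 among them. Igf2 shares 62.8% with a same-strand locus. Snrpn, a paternally expressed splicing protein gene, was listed at 0 in 10 of 15 libraries, and its overlapping partner Snurf in 15 of 15. Snrpn was therefore untestable at every stage, as were Zim1 and Rtl1, which stayed below a mean deposited value of 10.

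The members covered a wide range of abundance, and the range shifted between the stages. The following WT levels are RPKM, which is RPM divided by transcript length in kilobases, as mean ± SD, with n = 2 at E7.5 and E9.5 and n = 3 at E8.5, and no test was made because each stage was normalised on its own and holds other cells. At E7.5 the highest was Phlda2, a maternally expressed restrainer of placental growth, at 228 ± 71.9 RPKM. It was followed by Gnas, which encodes the stimulatory G protein subunit, at 159 ± 49.3 RPKM, a pair that does not differ beyond its spread. Cdkn1c, the cell cycle inhibitor p57, had 81.6 ± 0.240 RPKM, and H19, a noncoding RNA, had 74.8 ± 10.2 RPKM. In sorted cells Mest, a paternally expressed hydrolase gene of embryonic mesenchyme, led the members, with 806 ± 180 RPKM at E8.5 and 902 ± 85.1 RPKM at E9.5. Nnat, a small membrane proteolipid of developing neural tissue, had 203 ± 51.6 RPKM at E8.5 and 537 ± 157 RPKM at E9.5. Gnas had 288 ± 18.7 RPKM at E8.5 and 268 ± 5.74 RPKM at E9.5.

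Across the 3 stages, WT levels in RPM moved in different directions from member to member. Mest had 105 ± 20.3, 2148 ± 480 and 2403 ± 227 RPM at E7.5, E8.5 and E9.5. Ndn, a paternally expressed MAGE family protein of neurons, had 19.2 ± 6.75, 152 ± 0.396 and 142 ± 10.6 RPM in the same order. Phlda2 ran the other way, with 172 ± 54.4, 13.8 ± 4.53 and 1.09 ± 0.398 RPM. Meg3, a maternally expressed noncoding RNA, had 78.9 ± 29.3, 25.7 ± 4.64 and 16.9 ± 0.892 RPM, while Dlk1, its paternally expressed neighbour and a membrane ligand related to Delta, had 6.77 ± 3.82, 18.5 ± 2.06 and 48.6 ± 2.42 RPM. Peg12, next to Ndn, had 0.0847 ± 0.120 RPM at E7.5 and 10.1 ± 0.991 RPM at E9.5. These are levels of whole embryos at E7.5 and of sorted cells later, so stage and tissue cannot be told apart.

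**Figure D1:**
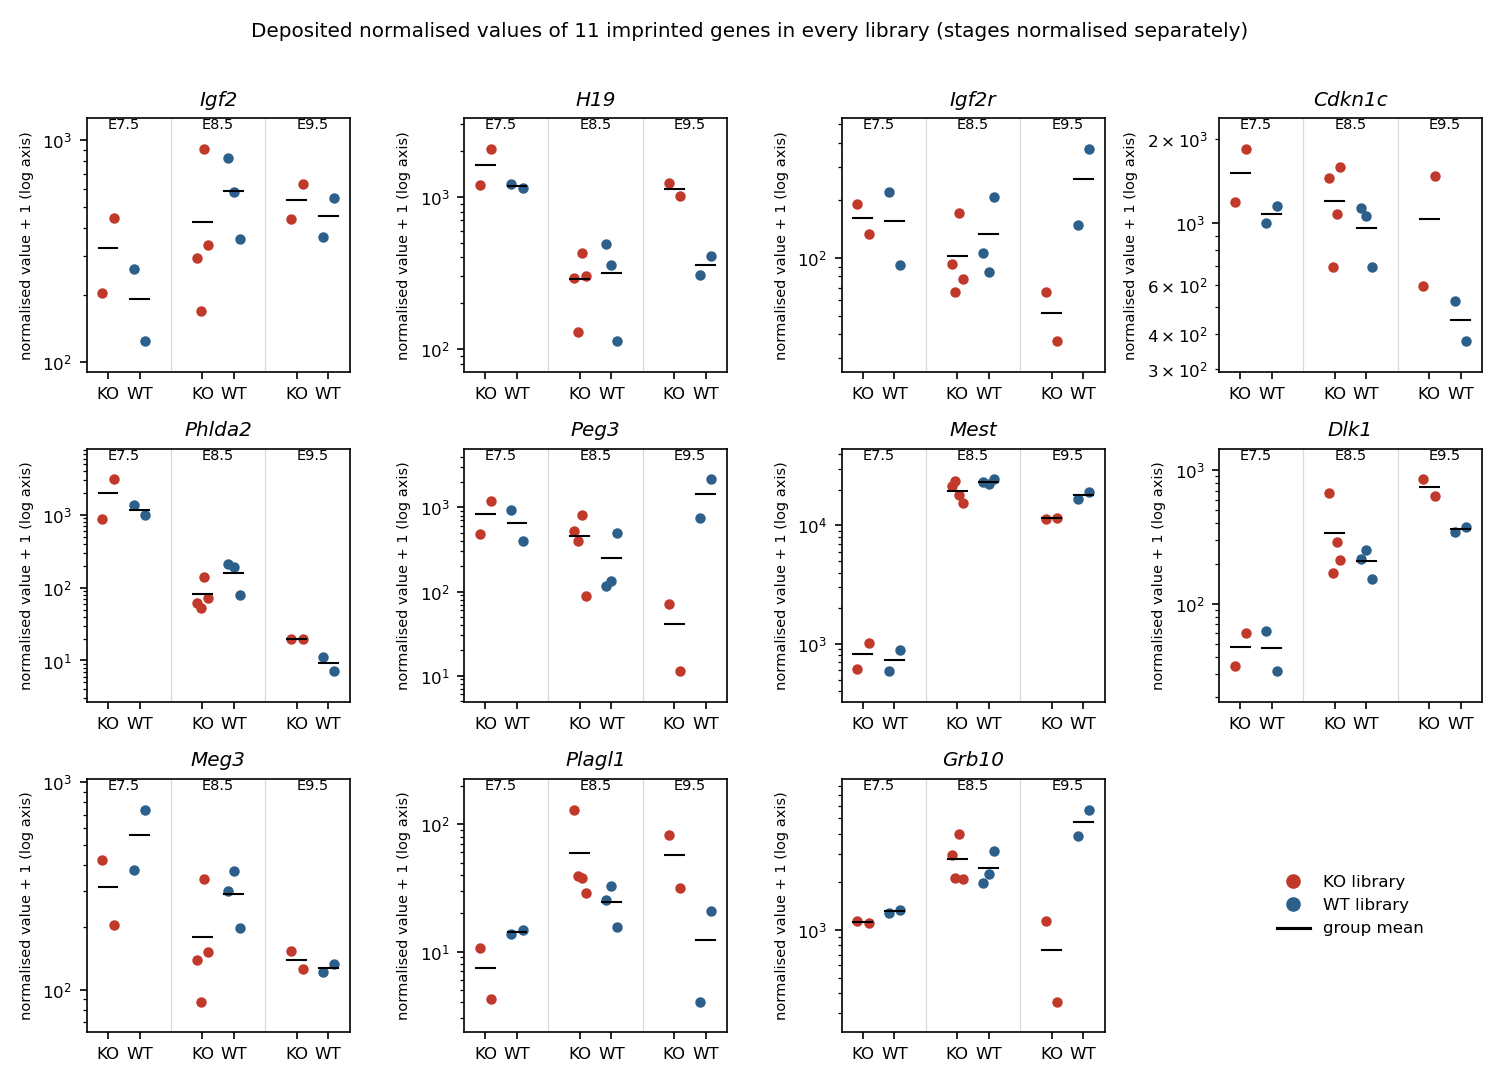
Deposited normalised values plus 1 of 11 imprinted genes (log axis) in each library at E7.5, E8.5 and E9.5, with KO libraries in red, WT libraries in blue and group means as black lines; values are comparable within a stage only. At E9.5 the KO and WT points overlap for Igf2 and Meg3 and lie apart for the other 9 genes, while at E8.5 the points of all 11 overlap between the groups.

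At E7.5 none of the 30 testable members passed the test between whole KO and WT embryos, and by limma no gene did. Genes were tested with limma on log2(value + 1), where the deposited mean was at least 10, with p-values adjusted by Benjamini-Hochberg over all genes. At an adjusted p below 0.05 the call was 0 of 30 members against 0% of 12492 genes. By DESeq2 on recovered reads it was 0 members against 0.272% of genes. At an unadjusted p below 0.05 limma gave 1 member, against 3.08% of genes. KO values lay wholly above or below WT values for 8 members, or 26.7%, against 28.7% of genes. The median log2 fold change of the members was -0.09, beside -0.01 over all tested genes.

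The member with an unadjusted p below 0.05 at E7.5 was Kcnq1ot1, the paternally expressed antisense RNA that silences the Kcnq1 cluster. It had 220 and 139 normalised reads in KO embryos, against 281 and 570 in WT embryos, and both KO values were below both WT values (log2 fold change -1.19 ± 0.42 SE, limma adjusted p = 0.99996). The log2 fold change was -0.40 with the trend over length and GC, described below for E9.5, removed, and -1.70 without WT1 and -0.68 without WT2. In the same cluster Cdkn1c had 1191 and 1840 in KO embryos and 999 and 1152 in WT embryos (log2 fold change 0.46 ± 0.32 SE, limma adjusted p = 0.99996). Gnas had 6348 and 7089 in KO embryos and 4944 and 3638 in WT embryos (0.66 ± 0.32 SE, limma adjusted p = 0.99996). The KO values of both genes lay above the WT values without passing the test.

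KO2 was the highest library at E7.5 for several members, among them Cdkn1c, Peg3, Mest, Gnas, Peg10 and Usp29. The 4 other such members set out here were picked after their values were seen. Phlda2 had 892 and 3111 normalised reads in KO1 and KO2, against 1361 and 993 in WT1 and WT2. Asb4, a maternally expressed gene of vessels and placenta, had 94.6 and 617 in KO1 and KO2, against 160 and 168 in the WT libraries. H19 had 1201 and 2058 in KO1 and KO2, against 1211 and 1146 in WT1 and WT2, and Igf2, the paternally expressed fetal growth factor, had 205 and 443, against 260 and 123. KO1 lay within the WT range for H19 and Igf2 and below it for Phlda2 and Asb4. KO2 also had the highest summed trophoblast markers and is the only E7.5 library with code 237; the part of either in these values was not tested.

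The other named members at E7.5 had overlapping groups or small differences. Igf2r, the maternally expressed receptor that clears IGF2, had 191 and 132 in KO embryos and 220 and 90.5 in WT embryos. Meg3 had 423 and 204 in KO embryos and 376 and 739 in WT embryos, and Rian, its downstream neighbour, had 173 and 77.7 in KO embryos and 132 and 269 in WT embryos. Copg2 had 366 and 124 in KO embryos and 287 and 456 in WT embryos, and Ppp1r9a had 64.0 and 24.8 in KO embryos and 50.6 and 111 in WT embryos. Their log2 fold changes were -0.84 for Meg3, -0.70 for Rian, -0.76 for Copg2 and -0.89 for Ppp1r9a. Grb10, an adaptor that restrains insulin and IGF receptor signalling, had 1130 and 1096 in KO embryos and 1268 and 1337 in WT embryos (log2 fold change -0.23 ± 0.27 SE). Peg3, Mest and Dlk1 had log2 fold changes of 0.32, 0.14 and 0.05, and all 3 were negative without the library KO2, at -0.32, -0.22 and -0.36. Plagl1 stayed below the minimum mean.

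At E8.5, in Wnt1-Cre-positive cells, none of the 33 testable members passed the test between KO and WT. The call at a limma adjusted p below 0.05 was 0 of 33 members against 0% of 12257 genes, and by DESeq2 it was 0 members against 0.261% of genes. At an unadjusted p below 0.05 limma gave 2 members, Asb4 and Mirg, or 6.06%, against 6.05% of genes. The groups did not overlap for 1 member, Mirg, or 3.03%, against 6.54% of genes. The median log2 fold change was 0.15 over the members, -0.20 over the 12 maternally and 0.23 over the 19 paternally expressed ones, beside -0.03 over all tested genes. In sign, 14 of the 19 paternally expressed members and 5 of the 12 maternally expressed ones were positive, and the difference between these counts was not tested.

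Mirg, a maternally expressed microRNA host of the Dlk1-Meg3 cluster, had 7.05, 6.25, 6.61 and 4.64 normalised reads in KO1 to KO4, against 21.7, 14.7 and 15.6 in the WT libraries. All KO values were below all WT values, at levels of 4 to 16 reads per library (log2 fold change -1.36 ± 0.45 SE, limma adjusted p = 0.807). Meg3 had 138, 86.4, 340 and 151 in KO cells and 299, 374 and 197 in WT cells, where the KO3 value overlapped the WT range (log2 fold change -0.83 ± 0.42 SE, limma adjusted p = 0.842). Rian had 29.8, 33.3, 48.7 and 24.3 in KO cells and 50.1, 40.5 and 48.9 in WT cells (-0.48 ± 0.34 SE). Dlk1 had 674, 168, 291 and 213 in KO cells and 217, 253 and 153 in WT cells (0.51 ± 0.43 SE). For Dlk1 KO1 and KO3 exceeded the WT range, while KO2 and KO4 lay within it. The ratio of Meg3 to Dlk1 within a library was 0.205, 0.516, 1.17 and 0.707 in KO cells, against 1.38, 1.48 and 1.28 in WT cells, with no overlap between the groups.

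Asb4 had 152, 102, 121 and 77.7 normalised reads in KO cells, against 56.9, 83.5 and 59.6 in WT cells (log2 fold change 0.73 ± 0.31 SE, limma adjusted p = 0.810). Phlda2 had 60.3, 52.0, 139 and 71.9 in KO cells, against 209, 190 and 78.2 in WT cells (-0.95 ± 0.43 SE, limma adjusted p = 0.815). In both genes 3 of 4 KO values lay outside the WT range, and the fourth within it. Plagl1, a zinc-finger factor that regulates other imprinted genes, had 129, 38.5, 36.7 and 27.8 in KO cells and 24.4, 31.9 and 14.7 in WT cells (1.04 ± 0.53 SE, limma adjusted p = 0.842). The Plagl1 value of KO1 was well above the rest, and KO1 and KO2 share code 128 and the high erythroid sums; their part in it was not tested.

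The growth genes of the Igf2 axis had overlapping groups at E8.5. H19 had 290, 128, 428 and 303 normalised reads in KO cells and 486, 354 and 111 in WT cells. Igf2 had 294, 169, 906 and 336 in KO cells and 828, 584 and 358 in WT cells (log2 fold change -0.67 ± 0.50 SE). Igf2r had 92.5, 65.6, 170 and 76.5 in KO cells and 106, 83.5 and 206 in WT cells. Cdkn1c had 1451, 693, 1075 and 1590 in KO cells and 1129, 1063 and 698 in WT cells, and Grb10 had 2935, 2117, 3978 and 2080 in KO cells and 1952, 2248 and 3139 in WT cells. Their log2 fold changes were -0.02 for H19, -0.37 for Igf2r, 0.28 for Cdkn1c and 0.16 for Grb10.

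Peg3, a paternally expressed zinc-finger gene, had overlapping groups at E8.5. It had 517, 393, 817 and 86.9 normalised reads in KO1 to KO4, against 115, 134 and 501 in WT1_5s, WT2 and WT3. The 3 low libraries, KO4, WT1_5s and WT2, are those with codes 163 and 169. In the same 3 libraries the correlation of level with transcript length was -0.42, -0.44 and -0.37, against 0.03, -0.03 and 0.47 in KO1, KO2 and KO3 and 0.50 in WT3. The part of code and length in the Peg3 values was not tested. The log2 fold change was 0.81 ± 0.72 SE (limma adjusted p = 0.884), and with these codes as a block it was -0.17. Mest was high in every library, with 21565, 23679, 18079 and 15397 in KO cells and 23133, 22402 and 24441 in WT cells (-0.26 ± 0.29 SE). Sgce, which encodes epsilon-sarcoglycan, had 453, 461, 307 and 456 in KO cells and 367, 360 and 174 in WT cells (0.54 ± 0.30 SE). Ube3a, an E3 ubiquitin ligase, had 1193, 1300, 1171 and 642 in KO cells and 787, 779 and 769 in WT cells (0.42 ± 0.26 SE).

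At E9.5, in Sox10-positive cells, 16 of the 32 testable members differed between KO and WT. That is 50% of them, against 47.5% of 12000 genes, so the share is near the background. Of the 16, 8 were higher in KO, or 25%, against 24.5% of genes, and 8 were lower, or 25%, against 23% of genes. The higher ones were H19, Tssc4, Sgce, Dlk1, Ddc, Nnat, Gnas and Nap1l5, and the lower ones Kcnq1ot1, Igf2r, Peg3, Mest, Peg10, Grb10, Ube3a and Impact. By parental allele, 2 maternally expressed members were higher and 2 lower, and 5 paternally expressed members were higher and 5 lower. The groups did not overlap for 25 members, or 78.1%, against 80.3% of genes. The median log2 fold change was 0.10 over the members and -0.14 over all genes, and TMM rescaling, another normalisation, moved the values of all genes by -0.15. Limma used the deposited values, which here set KO higher against WT than RPM does. In RPM, KO and WT overlapped for Dlk1 (65.4 and 43.9 against 46.8 and 50.3) and Tssc4 (101 and 120 against 108 and 88.9). They also overlapped for Sgce (23.8 and 43.8 against 22.5 and 26.7) and Nnat (884 and 1080 against 938 and 616). The other called members lay apart in RPM too. Meg3 lay lower in KO in RPM (11.7 and 8.49 against 16.3 and 17.6).

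**Figure D2:**
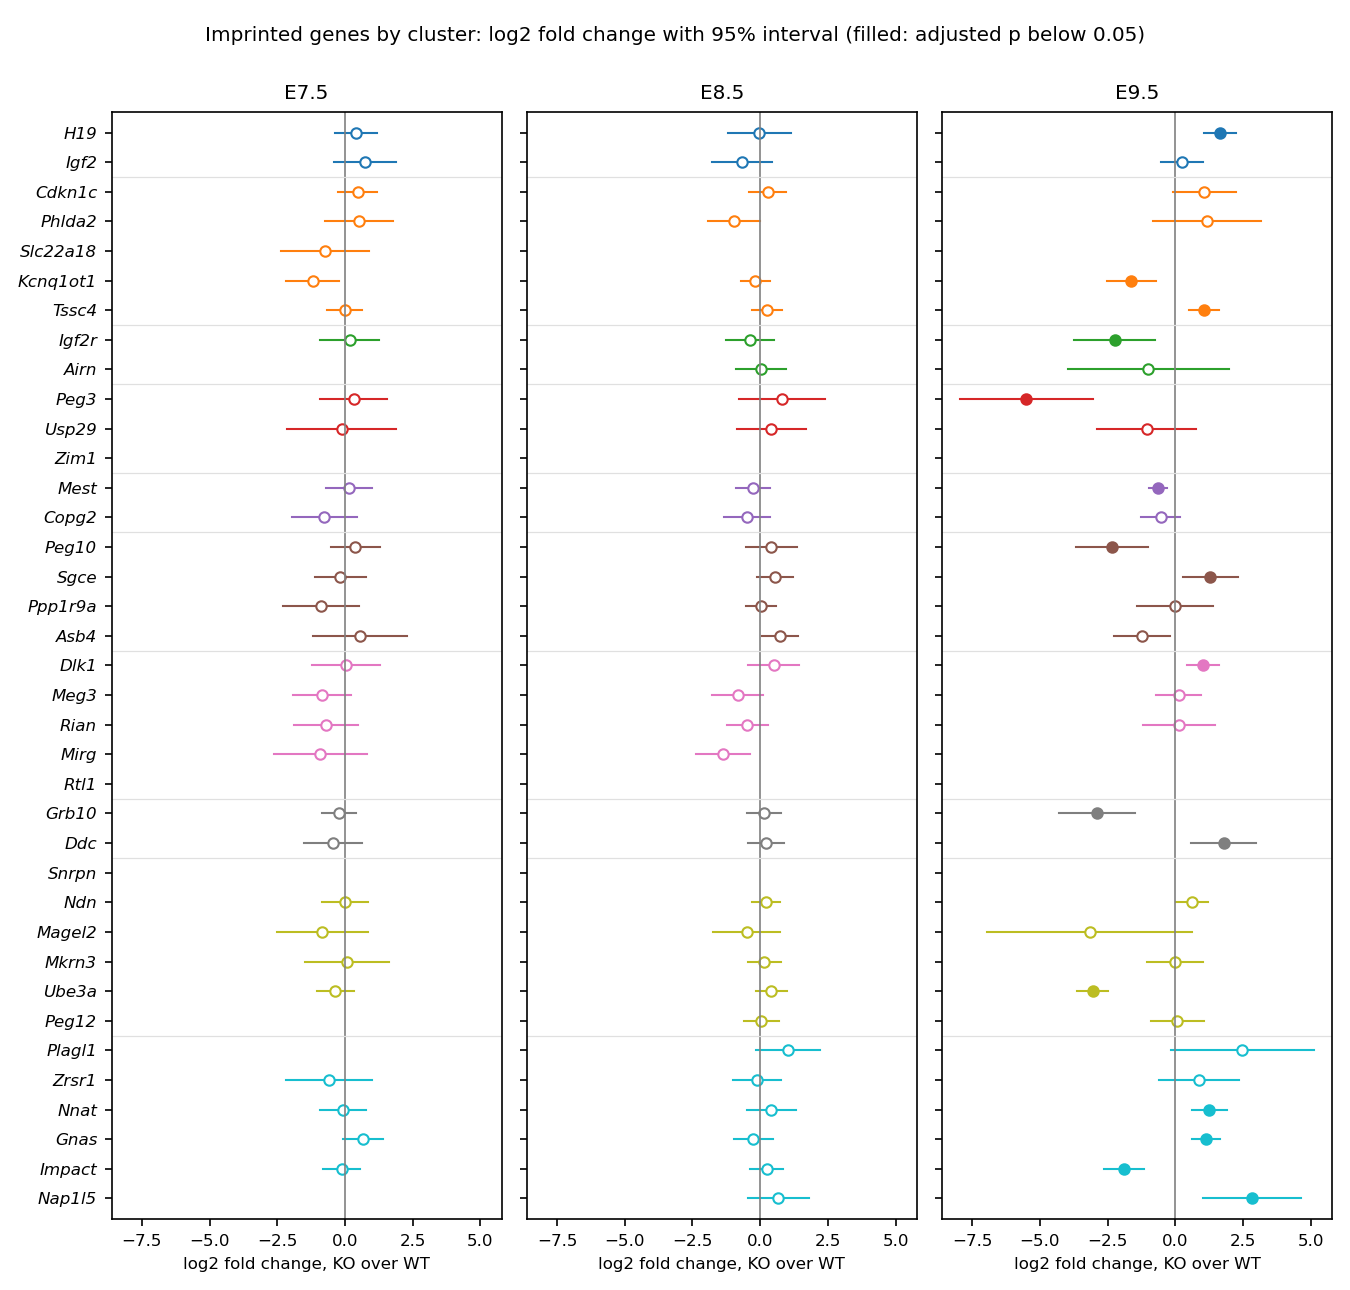
Log2 fold change, KO over WT, of each testable imprinted gene at E7.5, E8.5 and E9.5 with its 95% interval from limma; rows run by cluster, colours and thin lines separate clusters, and filled points have an adjusted p below 0.05. No point is filled at E7.5 or E8.5, and 16 are filled at E9.5, 8 on each side of 0, with Peg3 lowest at -5.50 and Nap1l5 highest at 2.84.

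Of the genes of the insulin-like growth factor axis, H19 was higher and Igf2r and Grb10 were lower in E9.5 KO cells. H19, at chr7:142575529-142578143, had 1232 and 1018 normalised reads in KO cells, against 307 and 409 in WT cells. Both KO values exceeded both WT values, by 3.16-fold (log2 fold change 1.66 ± 0.24 SE, limma adjusted p = 0.00495). Igf2, which shares enhancers with H19, had 438 and 632 in KO cells and 362 and 548 in WT cells, with overlap (0.24 ± 0.31 SE, limma adjusted p = 0.546). In RPM Igf2 lay lower in KO, at 33.6 and 43.2 against 49.0 and 73.0 in WT. With the trend over length and GC, described below, removed, its log2 fold change was 1.33 (limma adjusted p = 0.0984). Its direction thus depended on the scaling. Igf2r had 65.4 and 35.7 in KO cells, against 147 and 369 in WT cells, 4.74-fold lower in KO (-2.24 ± 0.59 SE, limma adjusted p = 0.0288). The WT libraries differed more from each other than the KO ones, and without KO2, WT1 or WT2 the limma adjusted p of Igf2r was 0.0767, 0.0567 and 0.280, and with no minimum mean it was 0.0708. Airn, the antisense RNA that silences Igf2r, had 33.8 and 3.40 in KO cells and 17.2 and 32.3 in WT cells, with overlap. Grb10, at chr11:11930508-12038683, had 1133 and 354 in KO cells, against 3863 and 5673 in WT cells, 7.38-fold lower in KO (-2.88 ± 0.56 SE, limma adjusted p = 0.0120).

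In the Kcnq1 cluster the antisense RNA was lower and one of its neighbours higher in E9.5 KO cells. Kcnq1ot1, at chr7:143203458-143296549, had 81.3 and 128 normalised reads in KO cells, against 279 and 359 in WT cells, with no overlap (log2 fold change -1.63 ± 0.36 SE, limma adjusted p = 0.0170). Tssc4, a maternally expressed neighbour, had 1312 and 1754 in KO cells, against 799 and 667 in WT cells, with no overlap (1.05 ± 0.22 SE, limma adjusted p = 0.0147). Its RPM values overlapped. Cdkn1c had 594 and 1474 in KO cells, against 525 and 377 in WT cells (1.07 ± 0.46 SE, limma adjusted p = 0.109). Its KO values exceeded the WT values but differed widely from each other, and the log2 fold change was 1.73 without KO1 and 0.42 without KO2. In RPM the groups of Cdkn1c overlapped, at 45.6 and 101 in KO and 71.0 and 50.3 in WT. With the trend over length and GC removed, its log2 fold change was 0.10 (limma adjusted p = 0.879). Phlda2 was at low counts, 18 and 11 sequenced reads in KO libraries and 10 and 12 in WT libraries. Its normalised values averaged 18.9 ± 0.212 in KO cells and 8.09 ± 2.88 in WT cells (SD, n = 2 each; log2 fold change 1.16 ± 0.79 SE, limma adjusted p = 0.265).

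Peg3, at chr7:6703892-6730431, had the largest fold difference of the members at E9.5. It had 69.7 and 10.2 normalised reads in KO cells, from 66 and 6 sequenced reads, against 752 and 2154 in WT cells, from 743 and 4268 sequenced reads. The difference was 45.3-fold, lower in KO (log2 fold change -5.50 ± 0.97 SE, limma adjusted p = 0.00908), and -6.83 to -4.17 with any 1 library left out. Its neighbour Usp29 had 14.8 and 8.5 in KO cells and 25.3 and 23.7 in WT cells (limma adjusted p = 0.268). Ube3a, at chr7:59228750-59311536, had 122 and 124 in KO cells, against 949 and 1123 in WT cells, with replicates close together in both groups. It was 8.31-fold lower in KO (-3.06 ± 0.23 SE, limma adjusted p = 0.000907). Impact, a regulator of the amino-acid stress response, had 245 and 162 in KO cells and 675 and 820 in WT cells, 3.73-fold lower in KO (-1.90 ± 0.29 SE, limma adjusted p = 0.00599).

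Mest, the most abundant member per kilobase in WT cells, was lower in E9.5 KO cells. It had 11331 and 11528 normalised reads in KO cells, against 16580 and 19227 in WT cells, 1.56-fold lower in KO (log2 fold change -0.64 ± 0.13 SE, limma adjusted p = 0.0146). The retrotransposon-derived gene Peg10 and its divergent neighbour Sgce moved in opposite directions, although both are expressed from the paternal allele. Peg10 had 16.9 and 28.9 in KO cells, against 100 and 136 in WT cells (-2.35 ± 0.53 SE, limma adjusted p = 0.0181). Sgce had 310 and 641 in KO cells, against 166 and 200 in WT cells (1.29 ± 0.40 SE, limma adjusted p = 0.0476). The groups did not overlap for either gene on the deposited scale, but those of Sgce did in RPM. The Sgce call was made without KO1 but was lost with KO2, WT1 or WT2 left out, at limma adjusted p of 0.0523, 0.223 and 0.135. It was also lost with a pseudocount of 0.1, with TMM rescaling and with no minimum mean, at limma adjusted p of 0.0543, 0.0618 and 0.0974. Asb4, further along the cluster, had 44.3 and 47.6 in KO cells and 100 and 121 in WT cells (-1.24 ± 0.41 SE, limma adjusted p = 0.0545).

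In the Dlk1-Meg3 cluster, Dlk1, at chr12:109452823-109463336, had 853 and 643 normalised reads in E9.5 KO cells, against 346 and 377 in WT cells. It was 2.05-fold higher in KO, with no overlap (log2 fold change 1.03 ± 0.23 SE, limma adjusted p = 0.0183), though its RPM values overlapped. The maternally expressed RNAs beside it had similar normalised values in both groups. Meg3 had 152 and 124 in KO cells and 120 and 132 in WT cells (0.12 ± 0.33 SE, 95% interval -0.70 to 0.95; -0.02 after TMM rescaling), and Rian had 40.1 and 34.0 in KO cells and 33.4 and 34.3 in WT cells. Rtl1, the retrotransposon-derived gene antisense to microRNAs, had 0 reads in both KO libraries, which allows up to 3 in each, against 4 and 8 reads in WT libraries. Mirg had 24 and 0 reads in KO libraries and 3 and 2 in WT libraries, so 1 KO library alone held its signal.

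The remaining members called at E9.5 were all higher in KO. Ddc, which encodes the decarboxylase that makes dopamine and serotonin, had 119 and 214 normalised reads in KO cells, against 38.5 and 54.5 in WT cells (log2 fold change 1.78 ± 0.48 SE, limma adjusted p = 0.0301, and 0.0587 with no minimum mean). Nnat had 11530 and 15792 in KO cells, against 6932 and 4620 in WT cells (1.25 ± 0.26 SE, limma adjusted p = 0.0139). Gnas had 14207 and 20730 in KO cells, against 7927 and 7802 in WT cells (1.13 ± 0.20 SE, limma adjusted p = 0.00982). Nap1l5, a nucleosome assembly protein-like gene, had 40.1 and 47.6 in KO cells, against 6.08 and 4.54 in WT cells (2.84 ± 0.71 SE, limma adjusted p = 0.0254), from 38 and 28 reads in KO and 6 and 9 reads in WT libraries. None of these 4 overlapped between the groups on the deposited scale, but Nnat did in RPM. Plagl1 had 81.3 and 30.6 in KO cells and 3.04 and 19.7 in WT cells (2.48 ± 1.05 SE, limma adjusted p = 0.104).

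Leaving out 1 library at a time changed the E9.5 count of members, which was largest without KO1 and smallest without WT1 or WT2. The count over all genes also moved widely, as given below, and each such fit leaves 1 library in a group. Peg3, Grb10 and Ube3a were called in all 4 of these fits. H19 and Gnas were lost without WT1 (adjusted p = 0.0519 and 0.0557), and Nnat and Impact without WT2 (adjusted p = 0.0583 and 0.0586). Kcnq1ot1, Tssc4, Mest, Peg10, Dlk1, Ddc and Nap1l5 were lost without either WT library, with adjusted p from 0.0790 to 0.267. Without KO1, the library with the high erythroid sum, the 16 called members kept the sign of their log2 fold change. The part of erythroid cells in these values was not tested.

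The direction at E9.5 moved with transcript length, over all genes and over the members. The 8 members called higher had a median transcript length of 2.15 kb, from 1.45 to 4.65 kb, and the 8 called lower a median of 7.68 kb, from 2.67 to 93.1 kb. Across the 11557 tested genes with a length the Spearman correlation of log2 fold change with length was -0.64, and across the 32 members -0.52. Of genes under 2 kb 64.4% were called higher and 0.596% lower in KO, while of genes above 6 kb 3.66% were called higher and 43.4% lower. Of the 9 members above 6 kb, 0 were called higher and 5 lower. The correlation of a gene's level, relative to its mean over libraries, with length was -0.47 and -0.58 in E9.5 KO1 and KO2, against 0.60 and 0.66 in WT1 and WT2. That mean is taken over the same KO and WT libraries, so these values largely restate the fold change library by library. These correlations run across genes of the same libraries, which are not independent replicates.

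With a trend over length and GC content removed from each library, 12 of the 32 members were called at E9.5, or 37.5%, against 25.3% of genes. The calls that remained were H19, Sgce, Dlk1 and Gnas, higher in KO, and Peg3, Mest, Grb10, Ube3a and Impact, lower in KO. Their log2 fold changes were then 1.07 for H19, 2.18 for Sgce, 2.04 for Dlk1, 1.91 for Gnas, -3.94 for Peg3, -0.84 for Mest, -1.73 for Grb10, -1.64 for Ube3a and -1.30 for Impact. The limma adjusted p-values of these 9 ran from 0.0064 (Dlk1) to 0.0382 (Grb10). The calls lost were Tssc4, Ddc, Nnat, Nap1l5, Kcnq1ot1, Igf2r and Peg10, and Tssc4 and Nnat then had values of -0.11 and -0.29. Calls gained were Meg3 at 2.03, Ndn at 1.19 and Plagl1 at 3.71, higher in KO. Length, code number and genotype run together at this stage, and their parts were not tested.

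**Figure D3:**
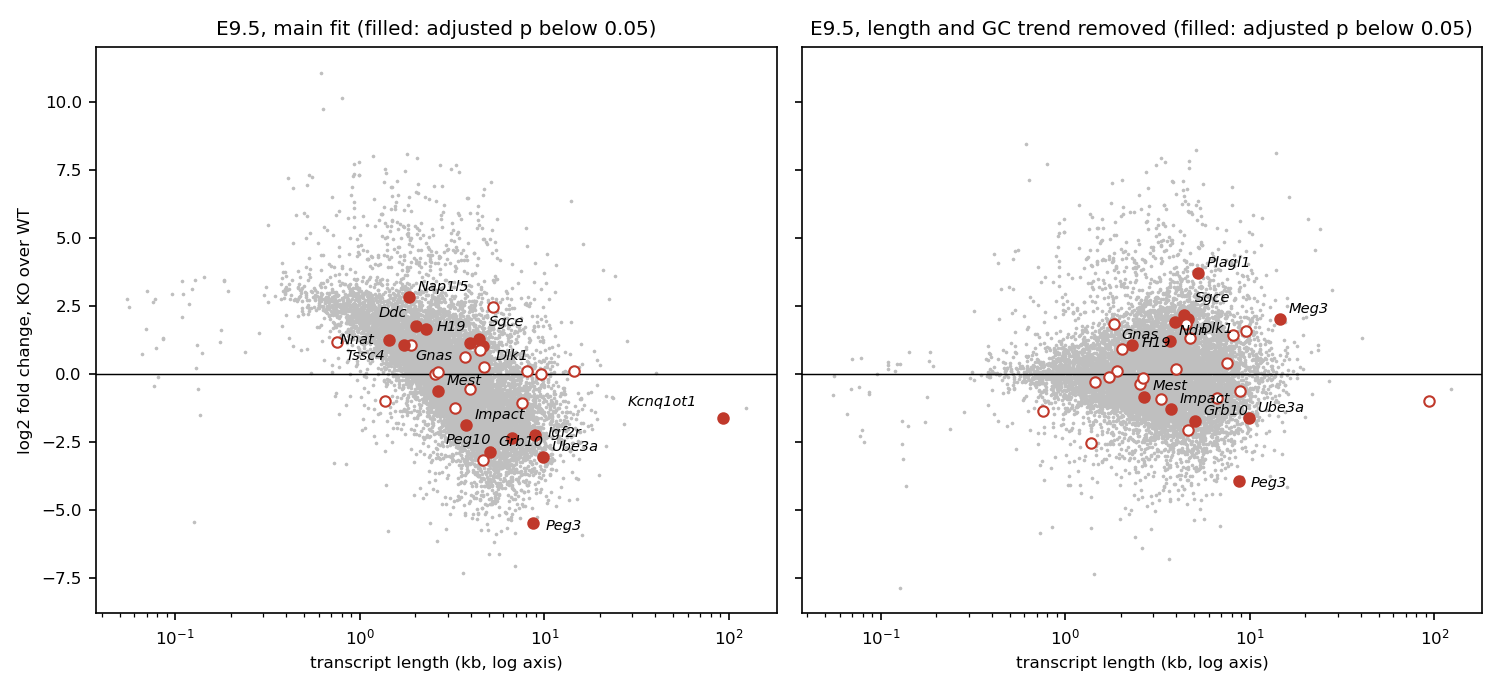
Log2 fold change, KO over WT, at E9.5 against transcript length in kb (log axis) for all tested genes (grey) and imprinted genes (red, filled where the adjusted p is below 0.05), in the main fit on the left and after removal of the trend over length and GC on the right. The grey cloud falls with length on the left (Spearman -0.64) and lies level on the right, where Peg3 stays lowest of the members at -3.94.

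Ratios within a library do not depend on its scaling factor, but they do move with a trend over length and GC. Several set neighbours of opposite parental expression side by side, and none was tested. At E9.5 the ratio of H19 to Igf2 was 2.81 and 1.61 in KO cells, against 0.846 and 0.747 in WT cells. Cdkn1c to Kcnq1ot1 was 7.31 and 11.6 in KO cells, against 1.88 and 1.05 in WT cells, and the 2 transcripts differ in length, 1901 against 93092 bases. Meg3 to Dlk1 was 0.178 and 0.193 in KO cells, against 0.348 and 0.349 in WT cells. Here the longer transcript, Meg3 with 14548 bases, is on top, and Dlk1 has 4653 bases. Sgce to Peg10 was 18.4 and 22.2 in KO cells, against 1.66 and 1.48 in WT cells. Rian to Meg3, neighbours expressed from the same allele, was 0.264 and 0.274 in KO cells and 0.277 and 0.261 in WT cells, with overlap. Igf2r to Airn, of opposite parental expression, was 1.94 and 10.5 in KO cells and 8.53 and 11.4 in WT cells, also with overlap. With the length and GC trend removed, the log2 change of the ratio, KO over WT, was -0.27 for H19 to Igf2, against 1.42 before, and -0.0097 for Meg3 to Dlk1, against -0.91 before. It was 1.10 for Cdkn1c to Kcnq1ot1, against 2.7 before, and 3.06 for Sgce to Peg10, against 3.63 before. For Igf2r to Airn it was 1.91, against -1.25 before. For Rian to Meg3 it was -0.58, against -0.0019 before. At E7.5 H19 to Igf2 was 5.87 and 4.64 in KO embryos and 4.66 and 9.31 in WT embryos, and at E8.5 0.987, 0.759, 0.472 and 0.900 in KO cells and 0.588, 0.606 and 0.311 in WT cells, overlapping at both stages.

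**Figure D4:**
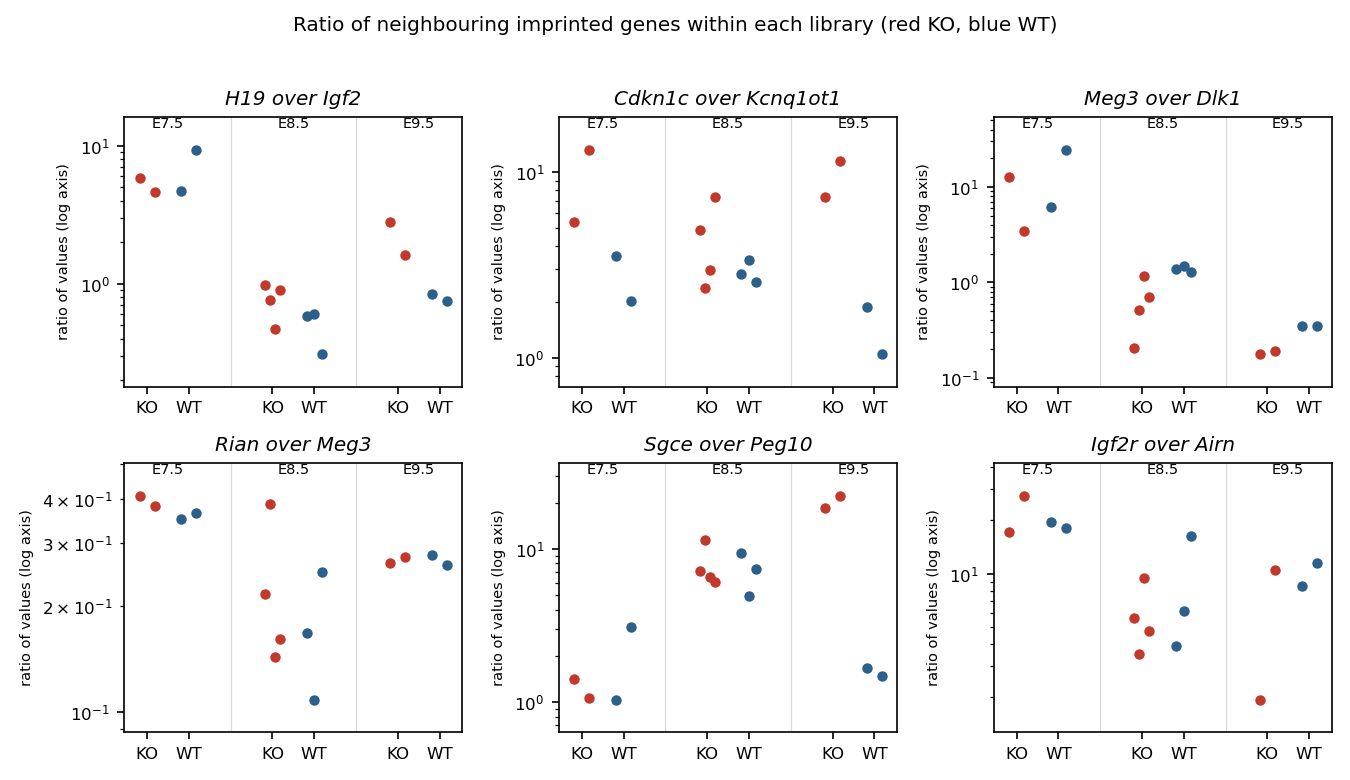
Ratio of the normalised values of 6 pairs of neighbouring imprinted genes within each library (log axis), KO in red and WT in blue, at E7.5, E8.5 and E9.5. At E9.5 the KO points of H19 over Igf2, Cdkn1c over Kcnq1ot1 and Sgce over Peg10 lie above the WT points and those of Meg3 over Dlk1 below them, while Rian over Meg3 and Igf2r over Airn overlap. With the length and GC trend removed the H19 over Igf2 change turned to -0.27 on the log2 scale and that of Meg3 over Dlk1 came to -0.0097.

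The members were also set out by whether they hold a miR-302 seed match. At E9.5, of 10 tested members with a match 1 was called higher (Nnat) and 4 lower (Peg10, Grb10, Ube3a and Impact), with a median log2 fold change of -0.80. Over all tested genes 24.5% were called higher and 23% lower. Of 17 tested members with a 3′ untranslated region and no match 6 were called higher and 3 lower, with a median of 1.03. At E7.5 the medians were -0.18 with and 0.14 without a match, and at E8.5 0.24 and 0.20, with 0 calls. The untranslated region is part of the transcript length with which the E9.5 values moved. With the length and GC trend removed, the E9.5 medians were -0.06 with and -0.11 without a match. Of the members with a match 1 was then called higher (Ndn) and 3 lower (Grb10, Ube3a and Impact), while Nnat had -0.29 and Peg10 -0.88, and of those without a match 4 were called higher and 2 lower.

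Other lists of the pathway give the setting. Of 44 further imprinted genes 23 were testable at E9.5, and 5 were called higher and 3 lower in KO, beside 24.5% higher and 23% lower over all tested genes. Commd1, the maternally expressed gene whose intron holds Zrsr1, had 3902 and 4719 normalised reads in KO cells, against 984 and 919 in WT cells (log2 fold change 2.17 ± 0.17 SE, limma adjusted p = 0.000983; 3.14 with the trend removed). Of 26 factors that set or keep imprints 23 were testable, with 2 called higher and 15 lower in KO and a median log2 fold change of -1.47, beside -0.14 over all tested genes. With the length and GC trend removed, 1 of these factors was called higher and 5 lower, with a median of -0.56, beside 13.6% higher and 11.8% lower over all genes. Uhrf1, which brings the maintenance methyltransferase to replicated DNA, had 1022 and 748 in KO cells, against 3028 and 3200 in WT cells (-1.83 ± 0.20 SE, limma adjusted p = 0.00254; -1.39 with the trend removed). Mbd3, a subunit of the NuRD complex, had 7621 and 7691 in KO cells, against 2904 and 2616 in WT cells (1.47 ± 0.14 SE, limma adjusted p = 0.00152), but 0.23 with the trend removed, where the call was lost (limma adjusted p = 0.155). Of 22 genes of the IGF axis 15 were testable, with 2 called higher and 5 lower, and 2 each way with the trend removed. Igf2bp1, an IGF2 mRNA-binding protein, had 770 and 479 in KO cells, against 2714 and 3167 in WT cells (-2.27 ± 0.27 SE, limma adjusted p = 0.00297; -0.72 with the trend removed, limma adjusted p = 0.0256). At E7.5 and E8.5 limma called 0 genes of these 3 lists. At E7.5 7 had an unadjusted limma p below 0.05, against 3.08% of all tested genes. They were 3 of 30 tested further imprinted genes, 3 of 24 factors and 1 of 17 IGF axis genes. At E8.5 the count was 3, against 6.05% of all tested genes, with 0 of 23, 2 of 23 and 1 of 17 in the same order.

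The authors' deposited tables of selected genes hold 18 of the 37 members at E9.5, 10 higher and 8 lower in KO, against 28% of all 24421 listed genes, a total that includes genes below the minimum used here. They contain the 16 members called by limma plus Cdkn1c (log2 fold change 1.20, adjusted p = 0.0233 in the authors' deposited table) and Ndn (0.65, adjusted p = 0.0552 in the authors' deposited table). At E8.5 the authors' deposited tables hold Asb4 and Plagl1 as higher and Phlda2 and Mirg as lower, with adjusted p from 0.512 to 0.665. The share of all genes in the E8.5 tables is not given here, so these members have no background beside them.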

How the data were processed

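RNA of whole embryos or sorted cells was made into cDNA with the poly(A)-primed, unstranded SMART-Seq v4 kit and into libraries with Nextera XT, per the labels' protocols. Per the submitters' processing notes, FastQC 0.11.5 and STAR 2.7.0f were used, with mm10 as the build. Which counter, annotation and normalisation were used is not given in the sources used here. For each stage the authors deposited a table of normalised signal, gene counts divided by 1 factor per library, over 24421 genes. The authors also deposited lists of selected genes with log2 fold changes and adjusted p-values; those of E8.5 and E9.5 were used for comparison, and the E7.5 list was left out because its means match the E7.5 table for no gene.

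All values (100%) were whole multiples of 1 read within 0.01 read, which gave each library's depth, RPM and RPKM; ranges and floors of 3 reads cover counting error only. Each stage was tested alone: limma 3.58.1 (trended, two-sided, R 4.3.3) on log2(value + 1), a deposited mean of at least 10, Benjamini-Hochberg over all tested genes at 0.05. Fold changes are on that scale, which understates low genes. EdgeR 4.0.16 and DESeq2 1.42.0 on the recovered reads, other pseudocounts and minima, TMM rescaling, each library left out, a replicate block, code numbers and a length and GC trend (loess, span 0.3) were alternatives; the trend, the E8.5 code block and crossed numbers were added after seeing the data. The replicate numbers were not taken as pairs in the main test. The scripts were tested on simulated data. Transcript lengths, untranslated regions and coordinates come from GENCODE M21 (release 21, GRCm38, the same build as mm10), and 23334 symbols of the tables matched it. The miRNA sequences are RefSeq's.

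The members and lists were chosen with earlier results of these data known. Named with full statistics at a stage were the members past the threshold (if over 14, the 14 with the largest change), filled to 8 by smallest p, plus 11 fixed members, and up to 3 genes of each further list; other members named with values were added after their values were seen.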

Additional observations from a re-analysis of the deposited data

Results flagged for a closer look

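At E8.5 the 4 KO libraries allow a test for a library far from the others (Dixon's ratio on log2(value + 1), 33 members). On that scale 2 members had such a library, and chance gives about 1 in 20. Sgce had 307 normalised reads in KO3, against 453, 461 and 456 in KO1, KO2 and KO4. The gap was 0.956 of the range on the log2 scale. Ube3a had 642 in KO4, against 1193, 1300 and 1171 in KO1 to KO3, a gap of 0.852 of the range on the log2 scale. On the normalised reads themselves both gaps are smaller, and whether the flags hold there was not tested. KO3 had the highest correlation of level with transcript length of these 4 libraries (0.47) and KO4 the lowest (-0.42); its part was not tested.

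Zrsr1, a paternally expressed splicing factor gene, had opposite directions at 2 stages in the deposited values. At E7.5 it had 9.74 and 12.8 normalised reads in KO embryos, both below the 14.1 and 21.4 in WT embryos (log2 fold change -0.59). At E9.5 it had 40.1 and 35.7 in KO cells, both above the 23.3 and 17.7 in WT cells (0.87). In RPM the E9.5 values overlapped, at 3.08 and 2.44 in KO and 3.15 and 2.36 in WT libraries. Neither log2 fold change passed limma's test, and the difference between the stages was not tested.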

How the results depend on the processing

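None of the alternatives gave a called member at E7.5. At E8.5 the replicate block called 2 members, Peg3 (log2 fold change 1.47, limma adjusted p = 0.0283) and Ube3a (0.65, limma adjusted p = 0.0322). It called 664 genes, whose share of all genes in that fit is not given here, so the 2 members are no result about the list. Same-numbered E8.5 libraries deviated together at 0.08, -0.02 and 0.55. The last, of KO3 and WT3, was the highest of the E8.5 pairs, and whether the numbers mark pairs is not settled by these values. All genes called at E7.5 were 34 by DESeq2, 47 with the replicate block, 48 with crossed numbers, 17 with code 239 only and 12 to 38 with a library left out. At E8.5 they were 32 by DESeq2 and 0 to 3 with a library left out. At E9.5 they were 2927 with the length and GC trend removed, 2257 of them shared with the 5700 of the main test, and 1920 to 8689 with a library left out, where the lone library of a group is assumed to vary like the others. The members called at E9.5 were 5 to 24 with a library left out, 18 by DESeq2, 17 with the replicate block and 20 with crossed numbers. The E9.5 shares over all genes by DESeq2, the replicate block and crossed numbers are not given here. These member counts therefore have no background beside them. The same-numbered libraries of E7.5 and E9.5 correlated at -0.12 and -0.17. With 2 libraries in each group the crossed pairs must have the same size and the opposite sign, 0.12 and 0.17.

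The median log2 fold change of the members at E7.5 was -0.21 with code 239 only, 0.032 with the trend removed and -0.213 to -0.052 with a library left out. At E9.5 it was 0.24 at a minimum mean of 100, -0.048 after TMM rescaling and -0.0056 with the trend removed.

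Some signs turned, all but those of Tssc4 and Nnat in members that had not passed the test. At E7.5, with a library left out, they ran from -0.47 to 0.80 for Igf2r, -0.38 to 1.42 for Phlda2, -0.32 to 0.97 for Peg3, -0.22 to 0.51 for Mest, -1.54 to 0.015 for Copg2 and -0.45 to 0.55 for Dlk1. With code 239 only, Phlda2 had -0.38, Peg3 -0.32, Mest -0.22, Copg2 0.015 and Dlk1 -0.36, and Dlk1 had -0.10 with the trend removed. At E8.5, with a library left out, values ran from -0.65 to 0.40 for H19, -0.031 to 0.35 for Grb10 and -0.65 to 0.0053 for Igf2r. H19 had 0.0057 with the trend removed, 0.42 without KO1 and KO2 and 0.40 with codes 163 and 169 as a block, under which Peg3 had -0.17 and Grb10 -0.062. At E9.5 Meg3 had -0.024 after TMM rescaling, and with a library left out -0.021 to 0.27, and Igf2 had -0.057 to 0.54. With the trend removed Phlda2 had -1.36, Tssc4 -0.11 and Nnat -0.29. The causes were not tested beyond this.

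Groups of 2 libraries at E7.5 and E9.5, and members with few reads, limit what these tests detect.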
